A study of Mus musculus with 6 samples.

Results

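The genes described here encode the DP subunits Tfdp1 and Tfdp2, the E2F transcription factors E2f1, E2f3, E2f4, E2f5 and E2f6, and the RB family proteins Rb1, Rbl1 and Rbl2, measured by RNA sequencing in mouse hippocampus. They are 10 of the 32201 genes in the deposited table and were selected by symbol. Tfdp2 was picked because its 2 groups of libraries were parted by more than 0.5 on the log2 scale, lower with baicalin, and the other 9 were added as its relatives and partners. For this reason the Tfdp2 values are a description and carry no test. All 6 libraries came from male C57BL/6N mice, an inbred strain, 8 weeks old and subjected to chronic unpredictable mild stress, in which varied mild stressors are applied as a rodent model of depression. In 3 libraries the mice had received baicalin, a flavone glucuronide from Scutellaria baicalensis, at 20 mg/kg, and in the other 3 they had received saline. The unstressed control named in the labels is not analysed here, so both groups are stressed. Whether the libraries are from different animals is not stated in the labels, so the p-values measure only the spread between these libraries, which may be technical.

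E2F factors bind DNA as heterodimers with a DP subunit and control genes of DNA replication, nucleotide synthesis, cell cycle progression and apoptosis. RB and its relatives p107 (Rbl1) and p130 (Rbl2) bind E2F-DP dimers and repress their targets, and cyclin-dependent kinases release the dimers by phosphorylating the RB proteins. In quiescent cells p130 with E2F4 and a DP subunit joins the MuvB core in the DREAM complex, which holds cell cycle genes silent. Most cells of the adult hippocampus are postmitotic neurons and glia, with dividing progenitors in the dentate gyrus.

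Several genes of this family carry E2F sites in their own promoters, so the bases before the annotated start sites are shown to compare Tfdp2 with its paralog. The windows are the 250 bases before RefSeq start sites on GRCm38.p6, read 5′ to 3′ on the strand of the gene. The capitals mark any of the E2F words TTTCCCGC, TTTCGCGC, TTTGCCGC and TTTGGCGC, searched on both strands with overlaps allowed. Windows were found for 7 of the 10 genes, 10 windows in all, and 4 of these windows, from 3 genes, held a word. The 4 include a further Tfdp1 window (chr8:13338554-13338803), which overlaps the one shown and holds the same GCGCGAAA site. It touches an annotated exon and is not shown. Those 3 genes are shown beside Tfdp2. The first Tfdp2 window is chr9:96258455-96258704 on the plus strand, the second is chr9:96258998-96259247 on the plus strand, the Tfdp1 window is chr8:13338501-13338750 on the plus strand, the E2f3 window, before the more upstream of its 2 starts, is chr13:29986064-29986313 on the minus strand, and the Rbl1 window is chr2:157204535-157204784 on the minus strand.
Tfdp2, first start: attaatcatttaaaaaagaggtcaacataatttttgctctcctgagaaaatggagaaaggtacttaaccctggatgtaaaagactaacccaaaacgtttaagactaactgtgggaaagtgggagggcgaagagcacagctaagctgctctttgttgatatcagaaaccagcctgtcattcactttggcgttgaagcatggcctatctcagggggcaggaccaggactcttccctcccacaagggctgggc
Tfdp2, second start: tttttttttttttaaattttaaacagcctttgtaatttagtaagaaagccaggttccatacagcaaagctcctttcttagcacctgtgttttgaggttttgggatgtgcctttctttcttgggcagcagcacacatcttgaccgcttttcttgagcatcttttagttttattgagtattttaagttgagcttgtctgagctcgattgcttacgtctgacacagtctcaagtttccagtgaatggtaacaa
Tfdp1: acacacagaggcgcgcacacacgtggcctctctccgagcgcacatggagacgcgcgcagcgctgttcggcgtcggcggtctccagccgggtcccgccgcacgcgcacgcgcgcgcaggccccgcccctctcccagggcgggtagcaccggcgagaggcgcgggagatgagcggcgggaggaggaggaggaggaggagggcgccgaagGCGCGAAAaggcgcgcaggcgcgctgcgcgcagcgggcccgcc
E2f3: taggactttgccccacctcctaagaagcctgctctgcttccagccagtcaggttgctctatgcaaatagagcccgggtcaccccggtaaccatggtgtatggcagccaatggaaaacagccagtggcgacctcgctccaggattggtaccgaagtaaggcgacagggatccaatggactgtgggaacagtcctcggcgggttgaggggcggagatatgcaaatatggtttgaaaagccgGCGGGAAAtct
Rbl1: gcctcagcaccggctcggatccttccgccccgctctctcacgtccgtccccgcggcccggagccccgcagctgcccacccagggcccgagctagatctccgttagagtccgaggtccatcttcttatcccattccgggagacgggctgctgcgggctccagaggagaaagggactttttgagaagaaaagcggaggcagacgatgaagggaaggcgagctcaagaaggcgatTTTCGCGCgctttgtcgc
The Tfdp1 window holds the word as GCGCGAAA, with its first base 43 bases before the start. In the E2f3 window it reads GCGGGAAA, 11 bases before the start, and in the Rbl1 window it reads TTTCGCGC, 18 bases before the start. Across all 32851 RefSeq windows of this length, 611 (1.86%) held at least 1 of these words. Neither Tfdp2 window held one, nor did the windows of E2f1, E2f6 and Rbl2 or the second E2f3 window (chr13:29984392-29984641). Among the windows found, the lack was thus not particular to Tfdp2. It says only that these letters are not in these windows. The E2f1 window (chr2:154569427-154569676, minus strand) touches an annotated exon and lies inside the annotated gene, whose 5′ end is at 154569892. The bases upstream of that end were not searched, so the E2f1 window does not speak for them. Both Tfdp2 windows also differed from the Tfdp1 window in composition. They had 45.6 and 37.6% G and C with 3 CpG dinucleotides each, against 76.8% and 42 CpG in the Tfdp1 window and medians of 52.4% and 6 over all windows. Both Tfdp2 windows lie inside the annotated gene, downstream of its 5′ end, and touch no annotated exon. The Tfdp1 window lies directly before the 5′ end of its gene. The bases before the 5′ end of Tfdp2, at 96196275, were not searched. The contrast in words and composition is thus between these windows and does not speak for those bases.

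Tfdp2 (ENSMUSG00000032411, mm10, chr9:96196275-96323646, plus strand), the DP subunit with the lower level per exon length in this tissue, was lower in all 3 baicalin libraries than in any saline library. The counts were 505, 657 and 446 in baicalin replicates 1 to 3 and 3248, 1086 and 3406 in saline replicates 1 to 3. In CPM (counts scaled to library size, with TMM factors that make libraries comparable) the levels were 7.94, 10.1 and 7.45 with baicalin and 49.5, 16.6 and 50.5 with saline. The groups do not overlap, but the saline libraries comprised a pair of high ones and a single low one. Saline 1 and saline 3 were 2.98 and 3.04 times saline 2. Saline 2 in turn was 1.63 times the highest baicalin library, and the lower of saline 1 and saline 3 was 4.88 times it. The 3 baicalin libraries were closer to each other, with the highest 1.36 times the lowest.

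The mean Tfdp2 level was 8.51 ± 1.44 CPM (SD, n = 3) with baicalin and 38.8 ± 19.3 CPM (SD, n = 3) with saline, a ratio of saline to baicalin of 4.56. The fitted log2 change, baicalin minus saline, was -2.19 with a standard error of 0.42. It was -2.55 without saline 2 and -1.96 without saline 3, and the values without each of the other 4 libraries lay between these. The coefficient of variation of Tfdp2 was 49.7% in the saline group, above that of 97.9% of the genes tested (median 6.68%), and 16.9% in the baicalin group (83.5th percentile, median 7.12%). Counting error alone would give 1.97 and 4.32%. The gap between the lowest saline and the highest baicalin library was 0.71 on the log2 scale, rank 7 of the 11 genes parted by more than 0.5 in this direction. The genes nearest that limit were Pbrm1 at 0.54 and Gm7832 at 0.53 inside it and Mir6982 at 0.48 outside it. Among the family, E2f3 came closest to a gap after Tfdp2, with a gap of -0.0026, where a negative value is an overlap. The set tested holds the 13153 genes whose FPKM (fragments per kilobase of exon, scaled to library size) averaged 1 or more. In it, 0.0836% of genes were parted by more than 0.5 in this direction and 0.198% in either. Because that limit chose Tfdp2, nothing is read from the share.

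**Figure D1:**
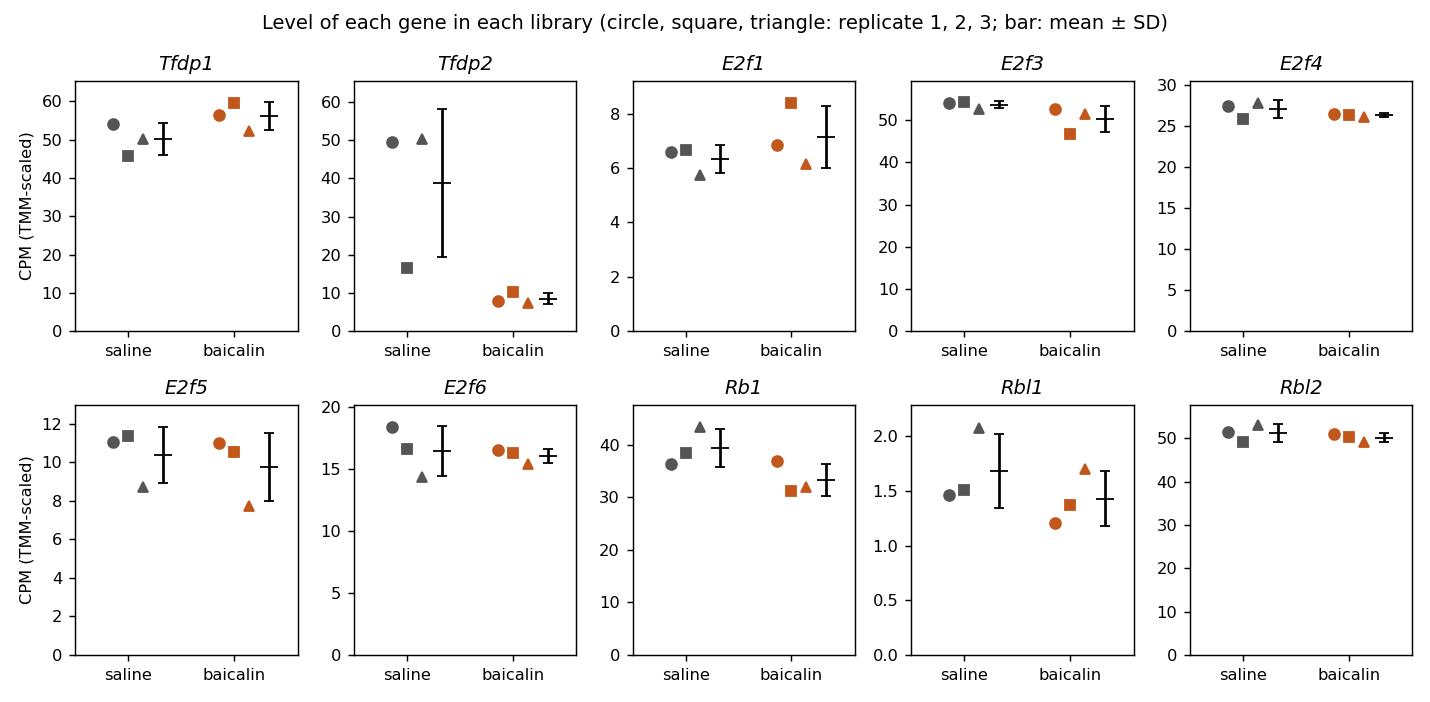
TMM-scaled CPM of each gene (vertical axis, from 0) in the saline and baicalin libraries, with circle, square and triangle for replicates 1, 2 and 3 and a bar for the mean ± SD. Tfdp2 has saline libraries at 49.5, 16.6 and 50.5 and baicalin libraries from 7.45 to 10.1, while the groups of the other 9 genes overlap.

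The tissue label was checked against marker genes, none of which was at a count of 0 in all libraries. The 6 neuronal markers summed to 6294 to 6398 CPM with baicalin and 6060 to 6372 CPM with saline. The sum of 6 markers of hippocampal pyramidal and granule cells was 684 to 842 CPM with baicalin and 884 to 932 CPM with saline. This sum was lower in every baicalin library, but its members differed. Neurod6, Wfs1 and Zbtb20 were lower in every baicalin library (log2 changes -0.21, -0.40 and -0.49), as were 9.52% of all genes tested. The groups overlapped for Spink8 (-0.11), Prox1 (0.08) and C1ql2 (0.27). Saline 2, the low saline library for Tfdp2, also had the lowest levels of the dentate granule cell genes Prox1 (75.7 CPM, against 105 to 117.2 in the other 5 libraries) and C1ql2 (33.4 CPM, against 58.3 to 65.5). The baicalin libraries were not low in either gene. The 12 markers of dividing cells each averaged below 1 FPKM over the 6 libraries and summed to 14.3 to 15.3 CPM with baicalin and 13.1 to 15.0 CPM with saline. Markers of neural progenitors and immature neurons, 8 genes, summed to 99.1 to 102.9 and 85.4 to 113.7 CPM. This sum joins members that went both ways. Nes and Sox2 were lower in every baicalin library (log2 changes -0.37 and -0.23), as were 9.52% of all genes tested. Igfbpl1 (1.43 to 1.82 CPM with baicalin, 0.44 to 0.81 with saline) and Eomes were higher in every one, both averaging below 1 FPKM. Of the 20463 genes averaging 0.1 FPKM or more, 1858 were higher in every baicalin library, and Eomes was too low to be among these. The groups overlapped for Dcx, Sox11, Neurod1 and Calb2. The part of these markers in the Tfdp2 difference was not tested. In bulk tissue fewer cells of a type and less RNA per cell cannot be told apart. Sums for meninges (86.9 CPM in saline 3, 32.4 to 37.6 in the other libraries) and choroid plexus (124.1 CPM in baicalin 2, 43.5 to 85.9 in the others) were each highest in a single library.

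Tfdp1 (ENSMUSG00000038482, chr8:13338751-13378448, plus strand), the other DP subunit and the family member with the highest mean FPKM, showed no such pattern. Its levels were 56.4, 59.5 and 52.2 CPM with baicalin and 54.2, 45.8 and 50.3 CPM with saline, and the groups overlap. The log2 change was 0.16 ± 0.08 (SE), with an adjusted p of 0.484 (edgeR's quasi-likelihood test, Benjamini-Hochberg over all genes tested) and a 95% interval of -0.04 to 0.36, unadjusted. The summed CPM of both DP genes was 64.4, 69.7 and 59.7 with baicalin and 103.6, 62.4 and 100.7 with saline, so saline 2 lay within the range of the baicalin libraries. Tfdp2 made up 12.3, 14.6 and 12.5% of the counts of both genes with baicalin and 47.7, 26.6 and 50.1% with saline. Per length, the ratio of Tfdp2 to Tfdp1 FPKM was 0.037, 0.044 and 0.037 with baicalin and 0.239, 0.094 and 0.263 with saline. Thus Tfdp1 had the higher FPKM in every library. The FPKM of Tfdp2 depends on its many exons. Its annotated exons join to 14029 bases in 16 blocks, against 3670 bases in 12 blocks for Tfdp1, and the deposited FPKM matched division by a length proportional to such exon unions (the ratio of implied length to exon union was 1.15 for Tfdp2, 1.14 for Tfdp1 and 1.14 in the median of all genes compared). Levels per length of a transcript that uses few of those exons would be understated.

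**Figure D2:**
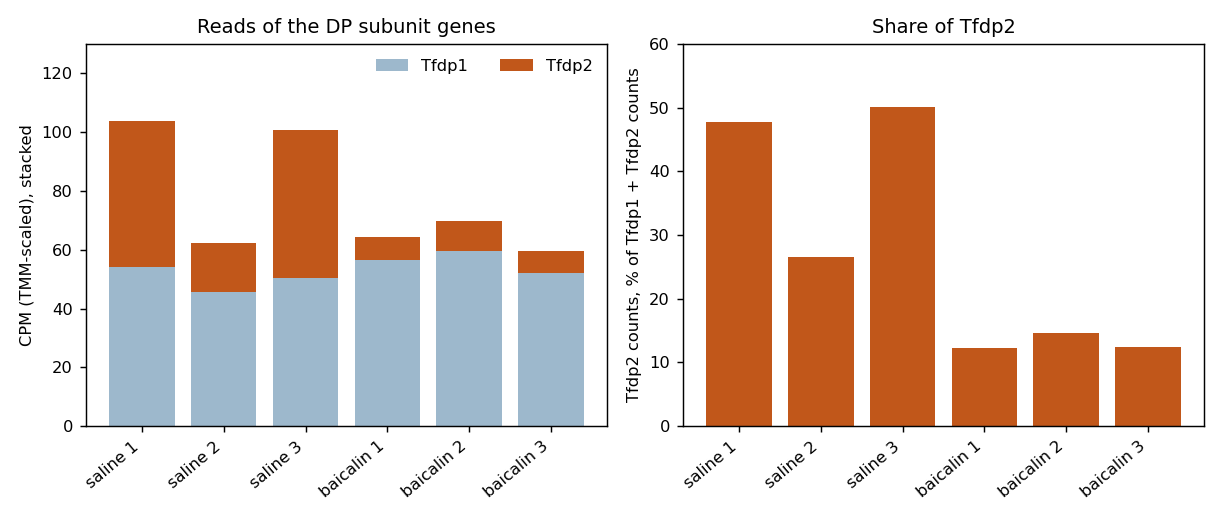
Left, TMM-scaled CPM of Tfdp1 (blue) with Tfdp2 (orange) stacked on it in each library; right, Tfdp2 counts as a percentage of the counts of both genes. The Tfdp1 bars lie between 45.8 and 59.5 CPM, while Tfdp2 is 47.7 and 50.1% of the counts in saline 1 and 3, 26.6% in saline 2 and 12.3 to 14.6% with baicalin.

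None of the E2F genes passed the adjusted threshold of 0.05 in edgeR. The same held for the RB genes; by comparison, 6 of the 13153 genes tested (0.0456%) passed it, 0.0152% higher and 0.0304% lower with baicalin. Of the 8 E2F, RB and DP genes tested beside Tfdp2, 1 (Rb1) had an unadjusted p under 0.05 in edgeR, as did 11.8% of all genes tested, and 0 passed in DESeq2 or in limma. Groups overlapped for 9 of the 10 genes of the family, while 19.5% of all genes tested had groups that do not overlap, 9.52% with baicalin lower and 9.94% with baicalin higher. The E2F genes with activating roles were E2f1 and E2f3. E2f1, which can drive entry into S phase and apoptosis, was measured at 6.85, 8.39 and 6.15 CPM with baicalin and 6.58, 6.67 and 5.75 CPM with saline. Baicalin 1 and baicalin 2 lay above the saline range and baicalin 3 lay inside it. The log2 change was 0.17 ± 0.14 (SE; adjusted p = 0.652, edgeR; 95% interval -0.17 to 0.52) and 0.04 without baicalin 2. E2f3 stood at 52.7, 46.8 and 51.4 CPM with baicalin and 53.9, 54.3 and 52.6 CPM with saline. Baicalin 1 reached just into the saline range from below. Its log2 change was -0.09 ± 0.06 (SE; adjusted p = 0.590, edgeR; interval -0.24 to 0.06).

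E2f4 and E2f5, which act mainly as repressors with p107 and p130, and E2f6, which represses without RB proteins as part of a Polycomb complex, differed between groups by less than the spread of the saline libraries. E2f4 had 26.5, 26.4 and 26.1 CPM with baicalin and 27.5, 25.9 and 27.8 CPM with saline, all within a narrow band. The E2f4 log2 change was -0.04 ± 0.06 (SE; adjusted p = 0.808, edgeR; interval -0.18 to 0.10). E2f5 levels were 11.004, 10.5 and 7.75 CPM with baicalin and 11.1, 11.3 and 8.71 CPM with saline, so replicate 3 was the lowest library in both groups. Its log2 change of -0.09 ± 0.17 (SE; adjusted p = 0.853, edgeR; interval -0.49 to 0.32) became 0.05 without baicalin 3. For E2f6, levels of 16.5, 16.2 and 15.4 CPM with baicalin lay inside the saline range of 18.4, 16.6 and 14.3 CPM. Its change of -0.03 ± 0.11 (SE; adjusted p = 0.911, edgeR; interval -0.29 to 0.22) became 0.05 without saline 1. The summed CPM of the 5 E2F genes was 113.6, 108.3 and 106.8 with baicalin and 117.4, 114.8 and 109.3 with saline. The other E2F genes were too low for the set tested: E2f2 had 45 to 86 counts per library, E2f7 had 4 to 19 and E2f8 had 0 to 30.

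The intervals bound how large a difference these libraries allow. On the log2 scale the lower end was -0.18 for E2f4 and -0.16 for Rbl2, whereas for E2f5 it was -0.49. A miss of the threshold does not show that the groups act alike.

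Of the RB family, Rb1, the retinoblastoma protein gene, had the larger difference of the 2 genes tested. Its levels were 36.9, 31.2 and 32.0 CPM with baicalin and 36.4, 38.6 and 43.5 CPM with saline. Baicalin 2 and baicalin 3 were below every saline library, and baicalin 1 was level with the lowest saline library, so the groups overlap. The log2 change was -0.24 ± 0.10 (SE), with an adjusted p of 0.415 in edgeR and an unadjusted 95% interval of -0.47 to -0.01. It was -0.17 without saline 3 and -0.32 without baicalin 1. Rb1 shares 488 exonic bases with Rcbtb2 and 408 with Lpar6, both on the opposite strand, and the sources used here do not state if counting was stranded, so reads cannot be told apart there.

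Rbl2, which encodes p130, the RB protein of quiescent cells, was at 51.0, 50.4 and 49.1 CPM with baicalin and 51.4, 49.1 and 53.2 CPM with saline. These ranges overlap almost entirely. The log2 change was -0.03 ± 0.06 (SE; adjusted p = 0.846, edgeR; interval -0.16 to 0.10). Rbl2 shares 693 exonic bases with Aktip and 892 with Gm45464 on the opposite strand. Rbl1, which encodes p107, the RB protein of cycling cells, lay under the filter with 77 to 140 counts per library. It had 1.21, 1.37 and 1.70 CPM with baicalin and 1.46, 1.51 and 2.07 CPM with saline, with overlap. In a fit of the 20463 genes averaging 0.1 FPKM or more, its log2 change was -0.24 ± 0.24 (SE; adjusted p = 0.773, edgeR) and -0.06 without saline 3.

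**Figure D3:**
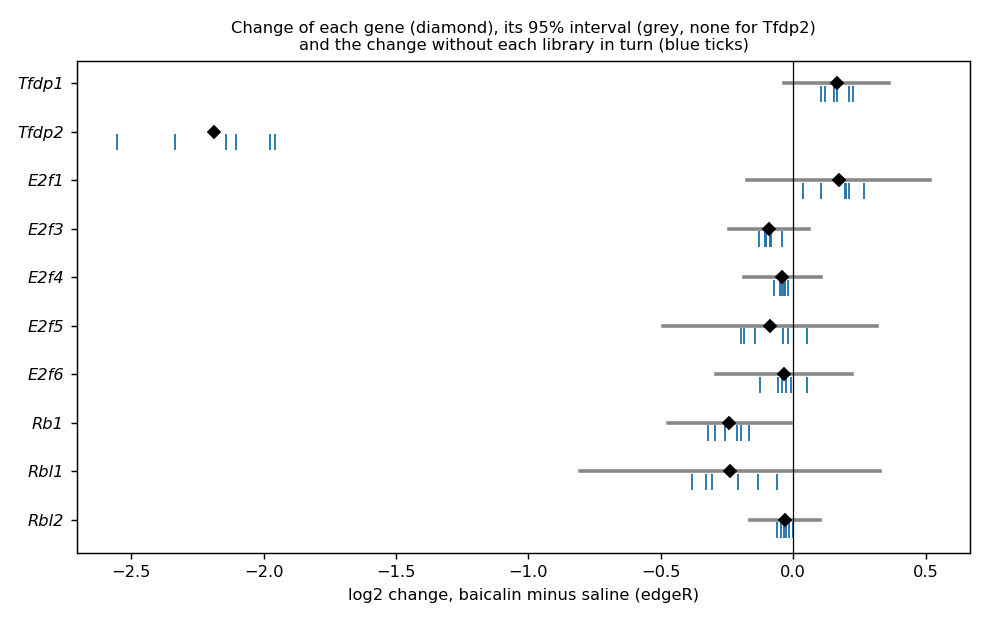
Log2 change, baicalin minus saline, of each gene (diamond), with its unadjusted 95% interval (grey, none drawn for Tfdp2) and the change without each library in turn (blue ticks). Tfdp2 lies at -2.19 with ticks from -2.55 to -1.96, and the diamonds of the other 9 genes lie between -0.24 and 0.17; Rbl1 comes from the fit with the lower filter.

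FPKM here matched division by joined exon length, which understates a transcript that uses few of those exons. The place of Tfdp2 in this order may thus be too low. In order of mean FPKM the family read Tfdp1 12.5, E2f4 9.43, E2f3 8.30, Rbl2 5.81, Rb1 5.25, E2f5 4.89, E2f6 2.48, E2f1 1.85, Tfdp2 1.46 and Rbl1 0.223. The ranges over 6 libraries overlapped for the neighbours Rbl2 and Rb1, Rb1 and E2f5, E2f6 and E2f1, and E2f1 and Tfdp2. The other neighbours in this order were apart in every library. The place of Tfdp2 differed between libraries. At 3.07 and 3.13 FPKM in saline 1 and saline 3 it stood above E2f1, whose highest value was 2.32 FPKM, and at 0.449 to 1.02 FPKM in the other 4 libraries it stood below it. Levels of 9 of the 10 genes passed the filter. Of these 9, 2 had a positive and 7 a negative log2 change, with a median of -0.04. Over all genes tested the median was -0.00063 and 50.2% were negative. The 7 include Tfdp2, which was picked for being lower with baicalin. It passed the filter through its saline level (mean 2.40 FPKM, against 0.52 with baicalin). For this reason nothing is read from the count or the median.

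The genes whose profile over the 6 libraries was nearest to that of Tfdp2 were taken by the root mean square difference of mean-centred log2 CPM, leaving out genes with predicted names. They were Rbm33 (0.52), Sh2d5 (0.64), Mief1 (0.67), Mir6982 (0.71) and Sel1l (0.73), while the median over all genes was 1.16. Rbm33 had 22.4, 29.2 and 24.6 CPM with baicalin and 84.7, 80.6 and 89.2 CPM with saline. Sel1l had 93.5, 90.0 and 83.8 CPM with baicalin and 191.0, 196.8 and 185.2 CPM with saline. All 5 were lower in each baicalin library. This follows from the choice of profiles near that of Tfdp2, which was picked for being lower with baicalin, so nothing is read from it. In none of the 5 was saline 2 as far below the other saline libraries as in Tfdp2. It was the lowest saline library for Rbm33 and Mir6982, by smaller margins. Mir6982 had 0.58, 0.52 and 0.65 CPM in saline 1, 2 and 3, and only 13 to 44 counts per library. In the same order, Sh2d5 had 73.1, 61.3 and 52.2 CPM and Mief1 had 29.9, 27.6 and 25.7 CPM.

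Upstream of the RB proteins, the cyclins and kinases that phosphorylate them gave 1 positive and 5 negative changes among the 6 of 12 genes tested, with a median of -0.11. None passed the threshold in edgeR, DESeq2 or limma, and 0 had an unadjusted edgeR p under 0.05. Ccnd1 and Ccnd2, which encode D-type cyclins, had log2 changes of -0.17 ± 0.11 (SE) and -0.13 ± 0.12 (SE) with overlapping groups. Cdk4, their kinase partner, was at 33.5 to 34.7 CPM with baicalin and 31.2 to 34.5 CPM with saline. Ccnd3, under the filter, split across both groups: it was 6.26, 15.5 and 5.35 CPM with baicalin and 5.77, 5.80 and 14.1 CPM with saline, so baicalin 2 and saline 3 were the high libraries. Cdk2 (2.27 to 3.67 CPM over all libraries) and Cdk6 (3.38 to 4.78 CPM) were also under the filter. Of the kinase inhibitors, 3 of 7 were tested, with 2 positive changes, 1 negative and a median of 0.10, and 0 passed in any of these tools (1, Cdkn1a, at an unadjusted edgeR p under 0.05). Cdkn1a, which encodes p21, had 12.3, 16.9 and 6.15 CPM with baicalin and 5.25, 5.17 and 7.42 CPM with saline. Baicalin 1 and baicalin 2 were above all saline libraries and baicalin 3 was inside their range. Its log2 change of 0.99 ± 0.36 (SE) had an adjusted p of 0.395 in edgeR and was 0.64 without baicalin 2. Cdkn1b, which encodes p27, had a change of -0.02 ± 0.10 (SE), and Cdkn1c, which encodes p57, was under the filter at 1.36 to 2.50 CPM.

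Among the proteins that act with E2F and RB on chromatin, 0 of the genes tested passed the threshold in edgeR or limma and 1, Hdac3, in DESeq2. Of all 13153 genes tested, 6 passed in edgeR and 211 in DESeq2. At an unadjusted edgeR p under 0.05 there were 4 corepressor genes (Hdac3, Sin3a, Smarca2 and Rbbp7), 1 gene of the E2F6 complex (Rnf2) and 0 MuvB genes, beside 11.8% of all genes tested. The MuvB core and its MYB partners had 4 of 7 genes tested, 3 positive and 1 negative, with a median of 0.05. Rbbp4, a histone-binding subunit, was at 143.5 to 151.1 CPM with baicalin and 137.7 to 143.2 CPM with saline (log2 change 0.07 ± 0.04, SE), groups that do not overlap. RB corepressors had 13 of 14 tested, 7 positive and 6 negative, with a median of 0.02, and 3 genes parted in each direction, beside 19.5% of all genes parted in either, 9.94% higher and 9.52% lower. The largest of these was Hdac3, a histone deacetylase, at 101.2, 100.6 and 100.0 CPM with baicalin and 63.7, 66.5 and 90.8 CPM with saline. Saline 3 stood between the other saline libraries and the baicalin group. The Hdac3 change of 0.45 ± 0.13 (SE) had an adjusted p of 0.353 in edgeR, 0.031 without saline 3 and 0.046 in DESeq2. The fit without saline 3 leaves out the saline library nearest the baicalin group. Hdac3 passed the threshold in no other alternative. Smarca2, a chromatin remodelling ATPase, and Rbbp7 followed at 0.25 ± 0.09 and 0.23 ± 0.07 (SE). The 3 parted lower with baicalin were Sin3a at -0.15 ± 0.05, Kdm5a at -0.11 ± 0.06 and Smarca4 at -0.09 ± 0.04 (SE). The E2F6 repressor complex had all 10 genes tested, 5 in each direction, with a median of -0.0017. Its Rnf2, a ubiquitin ligase of Polycomb complexes, had 42.6, 41.7 and 36.6 CPM with baicalin and 48.7, 53.2 and 47.4 CPM with saline, lower in every baicalin library. The Rnf2 change was -0.30 ± 0.08 (SE; adjusted p = 0.324, edgeR), and that of Rybp was -0.15 ± 0.07 (SE; adjusted p = 0.445, edgeR).

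Downstream, genes known as E2F targets in S phase had 14 of 35 members above the filter, 9 positive and 5 negative, with a median of 0.08 against -0.00063 over all genes. In edgeR, DESeq2 and limma 0 passed the threshold, and 1, Mcm7, had an unadjusted edgeR p under 0.05. Mcm7, a subunit of the replicative helicase, had 12.9, 14.9 and 13.7 CPM with baicalin and 12.5, 11.98 and 11.009 CPM with saline, higher in every baicalin library. Its change was 0.23 ± 0.09 (SE; adjusted p = 0.415, edgeR). Rrm1, a ribonucleotide reductase subunit, was parted in the same direction (0.11 ± 0.07, SE), and Msh6, a mismatch repair gene, in the opposite direction (-0.12 ± 0.09, SE). These 3 were the parted genes among the 14, beside 19.5% of all genes tested. Each of these gaps is small: Msh6 had 19.1 to 23.1 CPM with baicalin and 23.2 to 24.3 CPM with saline. With the filter at a mean of 0.1 FPKM, 33 of the 35 entered, with 21 positive and 12 negative changes and a median of 0.11, and 0 passed in edgeR. E2F targets in apoptosis had 5 of 9 genes tested, 2 positive and 3 negative, with a median of -0.06. In this list Bid, a BH3-only protein gene, was parted at 16.5 to 18.5 CPM with baicalin and 13.6 to 16.4 CPM with saline, as 9.94% of all genes tested were in this direction. Coactivators and turnover factors of E2F had 9 of 11 tested, 2 positive and 7 negative, with a median of -0.04. The acetyltransferase gene Ep300 (-0.16 ± 0.07, SE), the cofactor gene Hcfc1 (-0.14 ± 0.05, SE) and the p53 regulator gene Mdm4 (-0.07 ± 0.05, SE) were parted and lower with baicalin, 3 of 9 genes, beside 9.52% of all genes tested. The smallest edgeR adjusted p of these 3 was 0.385, for Hcfc1. In both lists 0 passed in edgeR, DESeq2 or limma, and 1 gene, Hcfc1, had an unadjusted edgeR p under 0.05.

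**Figure D4:**
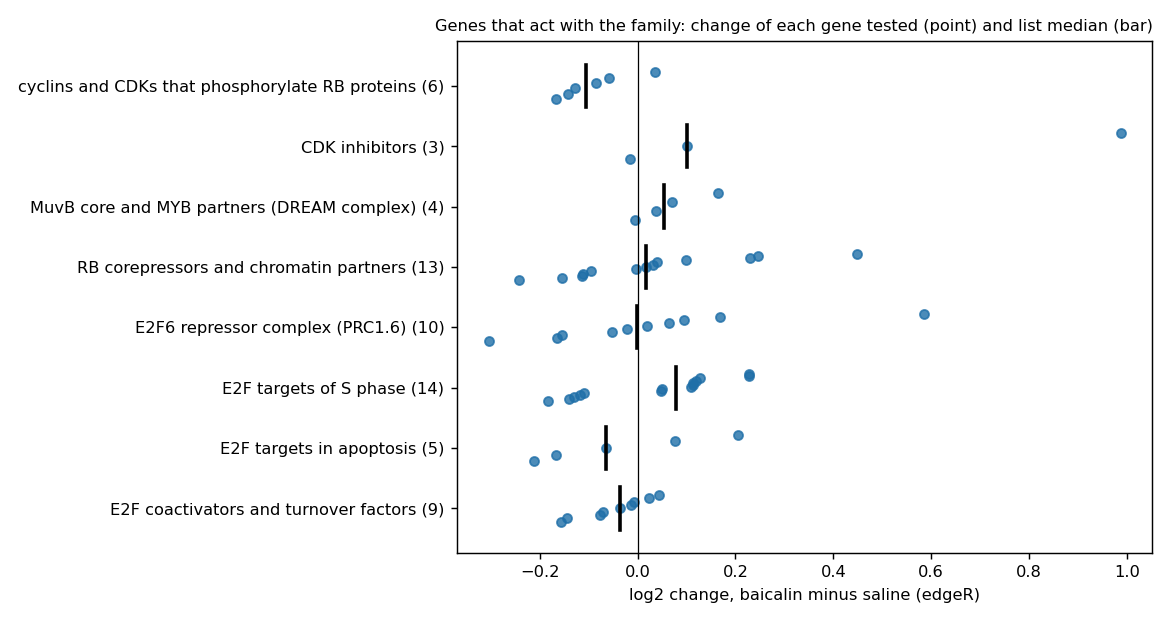
Log2 change, baicalin minus saline, of each gene tested (point) in the lists of genes that act with the family, with the list median (bar) and the number tested in parentheses. The list medians lie between -0.11 and 0.10, and the point farthest right is Cdkn1a at 0.99.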

How the data were processed

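RNA sequencing of hippocampus was used from 6 libraries, 3 per group. The authors' table gives unnormalized read counts and FPKM for each gene and library, per the file headers. HISAT2, StringTie, bcl2fastq 2.0, limma and DESeq2, with build mm10, come from the submitters' processing notes, which give no roles or options. The table's other 12 per-sample columns fit no sample's labels and stayed out. Totals were 61303274 to 67957752 counts per library, and their number limits the precision of low genes.

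The 13153 genes averaging 1 FPKM or more were fitted in edgeR 4.0.16 (R 4.3.3; TMM scaling, quasi-likelihood test, term for treatment), with Benjamini-Hochberg adjustment over all of them and significance at 0.05. Log2 changes give baicalin minus saline. Standard errors are absolute log2 changes over the square root of F, and 95% intervals use edgeR's degrees of freedom. Profiles used log2 CPM with a prior count of 0.5. The steps were tested on simulated counts. Promoters came from RefSeq (GRCm38.p6), exons from GENCODE mouse release 21.

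The members and lists were chosen with earlier results of these data known. Named beyond the 10 genes were 9 cyclins, kinases and inhibitors, up to 3 genes per list whose groups do not overlap, by size of change, and the 5 nearest profiles. The RB corepressors parted lower with baicalin were given as well. Alternatives were other scalings (DESeq2 size factors, upper quartile, TPM), other filters (none, 0.1 and 5 FPKM), robust variance, DESeq2 1.42.0, limma 3.58.1 on log2(FPKM + 1) and log2(FPKM + 0.1), a replicate block, and each library left out.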

Additional observations from a re-analysis of the deposited data

How the results depend on the processing

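The number of genes past the adjusted threshold, 6 in edgeR, was 211 in DESeq2 (83 lower with baicalin) and 0 in edgeR with a replicate block, where 1120 genes had an unadjusted p under 0.05. Leaving out 1 library gave 2 to 39 genes: 39 without baicalin 1, 14 without saline 3, 10 without saline 2 and 2 without baicalin 3. TPM scaling gave 1 higher and 4 lower, against 2 and 4, and moved the median of all genes to -0.08. Same-numbered libraries of the 2 groups had correlations of their deviations of 0.14, 0.094 and 0.035, so the numbers were not taken as pairs, although each library correlated best with its own number. The log2 change of Tfdp2 was -1.09 in limma on log2(FPKM + 1), where the pseudocount shrinks low genes, and between -2.55 and -1.96 without 1 library. It was negative in all 16 alternatives that gave a value, and those of Tfdp1, E2f1, E2f3, E2f4, Rb1, Rbl1 and Rbl2 also kept their sign. With a filter of 5 FPKM, Tfdp2, E2f1, E2f5, E2f6 and Rbl1 gave no value.

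Signs turned for the genes and list medians below, and the cause was not tested. Without 1 library, the range of log2 changes was -0.199 to 0.0513 for E2f5, -0.124 to 0.0535 for E2f6, -0.559 to 0.636 for Ccnd3, -0.221 to 0.147 for Cdk2, -0.00849 to 0.0635 for Cdk4, -0.0802 to 0.151 for Cdk6 and -0.0769 to 0.0800 for Cdkn1b. Under TPM scaling the Cdk2 log2 change was -0.0819, the Cdk4 log2 change -0.0411, the Cdk6 log2 change -0.0666 and the Rbbp4 log2 change -0.00719. That of Cdk2 was also -0.000983 in limma on log2(FPKM + 1), -0.0126 on log2(FPKM + 0.1) and -0.0212 with the replicate block. Among the pathway lists, the median without 1 library was -0.03 to 0.05 for RB corepressors, -0.14 to 0.07 for apoptosis targets and -0.03 to 0.08 for the E2F6 complex. Under TPM scaling, which moves all genes down, the medians of the MuvB list and the corepressors were -0.02 and -0.06, that of the E2F6 complex turned positive with upper-quartile factors, and that of the apoptosis targets was 0.07 with a filter of 5 FPKM.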

Other observations

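The largest step between neighbouring libraries, when ordered by level, was 2.98-fold for Tfdp2. Among 12408 genes tested with at least 100 counts in each library, 280 (2.26%) had a step of at least 2-fold. Among the pathway genes tested the largest steps other than that of Tfdp2 were those of Fen1 (3.22-fold), Cbx3 (1.82-fold) and Mga (1.81-fold), of which only Fen1's reached 2-fold. Fen1, a flap endonuclease of DNA replication, was at 4.03 CPM in baicalin 2 and 13.0 to 17.0 CPM in the other 5 libraries. Cbx3, which encodes a heterochromatin protein of the E2F6 complex, was at 59.5 and 57.4 CPM in saline 1 and saline 2 and 108.3 to 119.8 CPM in the other 4 libraries, saline 3 included. Mga, the scaffold gene of that complex, was at 19.8 CPM in baicalin 2 and 22.7 CPM in saline 1, against 41.2 to 52.5 CPM in the other libraries. These genes were chosen after their values were seen, and none separated the groups.

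Cdc25a, an E2F target that encodes a phosphatase activating cyclin-dependent kinases, was under the filter and was also chosen after its values were seen. It had 4.46, 3.71 and 2.69 CPM with baicalin and 7.05, 7.04 and 6.71 CPM with saline, with a log2 change of -0.94 ± 0.19 (SE; adjusted p = 0.375, edgeR, genes of at least 0.1 FPKM).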
